A study of Mus musculus with 8 samples.

Results

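The endothelin system was followed through 7 genes: the ligand genes Edn1, Edn2 and Edn3, the receptor genes Ednra and Ednrb, and the converting enzyme genes Ece1 and Ece2. They were taken by gene symbol from a table of 19884 genes, and each had 1 entry. RNA came from whole brain and whole uterus of untreated, wild-type C57BL/6J female mice, 6 to 10 weeks old when mated, on gestation day 4, with the day of the plug as day 1 and pregnancy checked by blastocysts in the uterine flush. There were 4 brain libraries and 4 uterus libraries, each from 1 animal. Whole organs hold many cell types, and no nonpregnant mouse or other day was analysed here, so each value is a level in that organ at that stage.

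Endothelins are short peptides cut from longer precursors. Proprotein convertases first release big endothelin, and the endothelin-converting enzymes then trim it to the active peptide. Type A receptors (Ednra) are best known from smooth muscle, where they couple to calcium release and contraction and prefer endothelin-1 and endothelin-2 to endothelin-3. Type B receptors (Ednrb) bind the endothelins about equally. In vessels they release nitric oxide and clear endothelin-1, and in brain they are known above all from astrocytes. In the uterus, endothelin-1 is known to contract both vessels and myometrium.

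The windows around the annotated starts of Edn1, Ednra and Ednrb are shown because these were the ligand and the receptors whose balance differed between the organs. They are RefSeq windows on GRCm38.p6, given 5′ to 3′ on the gene's strand, with 250 bases before the start and 50 from it on. Capitals mark matches to the GATA motif AGATAA or to an AP-1 motif, spelled TGACTAA in its first form, TGACTCA in the next and TGAGTCA in the last, on either strand; the matches do not overlap.
Edn1, chr13:42301226-42301525, plus strand: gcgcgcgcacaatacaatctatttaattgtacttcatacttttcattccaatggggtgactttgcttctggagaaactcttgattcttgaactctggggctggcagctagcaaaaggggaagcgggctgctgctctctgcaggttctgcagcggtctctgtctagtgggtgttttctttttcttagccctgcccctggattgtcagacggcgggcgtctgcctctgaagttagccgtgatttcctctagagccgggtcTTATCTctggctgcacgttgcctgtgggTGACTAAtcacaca
Ednra, chr8:77724403-77724702, minus strand: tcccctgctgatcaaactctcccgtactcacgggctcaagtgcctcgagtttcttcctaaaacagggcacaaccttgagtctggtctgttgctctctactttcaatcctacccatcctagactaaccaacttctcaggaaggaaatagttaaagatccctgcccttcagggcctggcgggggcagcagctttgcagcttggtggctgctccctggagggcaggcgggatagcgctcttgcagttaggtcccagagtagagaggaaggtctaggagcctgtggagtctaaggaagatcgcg
Ednrb, chr14:103843652-103843951, minus strand: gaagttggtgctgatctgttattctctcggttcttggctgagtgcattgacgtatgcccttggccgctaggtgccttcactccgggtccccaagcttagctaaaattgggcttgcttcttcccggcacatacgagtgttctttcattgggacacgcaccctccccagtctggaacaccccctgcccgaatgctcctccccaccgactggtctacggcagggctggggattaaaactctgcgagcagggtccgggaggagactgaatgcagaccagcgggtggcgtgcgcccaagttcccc
In the Edn1 window the GATA letters began at base 9 and the AP-1 letters at base 37, counted from the annotated start as base 1. The GATA letters were on the opposite strand. Of all 32851 windows of this length, 11.2% held the GATA letters and 7.38% an AP-1 form. The motifs were chosen after the Edn1 window was read, so these shares are no test of the Edn1 matches. TATAAA (13.6% of windows), ACGTG (19.6%) and GGGCGG (35.7%) were searched too, and the Edn1 window held ACGTG at base 22 on the opposite strand. The windows of Ednra and Ednrb held none of the 5 motifs, which says only that these letters are not in these 300 bases. The Ednrb window does not reach 103844402, where the gene model used below for its coordinates begins on the minus strand. The bases around that start were not searched.

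Library totals ran from 35394603 to 47790178 counts. A level is given as counts per 1000000 (CPM) after TMM scaling, with the mean ± SD of the 4 libraries of an organ. Differences are log2 fold changes of uterus relative to brain with their SE, positive where uterus was higher, from edgeR's quasi-likelihood test; p-values were adjusted over all 16074 genes that passed the filter on low counts. P-values measure the spread between these mice only. The organs' defining markers followed their labels: 6 neuronal genes summed to 5910 to 6120 CPM in brain and 2.19 to 4.85 in uterus, and 6 stromal genes to 7810 to 9850 CPM in uterus and 82.1 to 86.9 in brain. Uterus libraries were uneven in the sum of 6 gland genes (77.7 to 1190 CPM). Spink1 (136 ± 142 CPM), Prss28 (75.8 ± 101) and Prss29 (183 ± 256) had an SD above their mean in uterus. Foxa2 (10.9 ± 2.4), Cxcl15 (22.1 ± 5.18) and Lif (40.0 ± 9.27) varied less. Foxa2, Lif, Prss28 and Prss29 fall outside the naming rule and were named after their values were seen.

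Of the 7 genes, 6 passed the filter and 5 of those 6 differed between the organs (adjusted p under 0.05), against 87.0% of all genes tested. Edn1, Ednra and Ece1 were higher in uterus and Ednrb and Ece2 higher in brain; among all genes tested, 43.5% were called higher in uterus and 43.6% higher in brain. The 5 also had no overlap between the organs' libraries, as had 84.1% of all genes (42.0% in each direction). Beyond a 2-fold change, 2 of the 6 were called, Edn1 and Ednra, both higher in uterus, against 49.3% of all genes (23.5% higher in uterus, 25.8% in brain). These shares lie near the background, so being called does not set the genes apart; the directions and sizes below are what the data give. In whole organs, fewer cells of a type and less RNA per cell cannot be told apart.

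**Figure D1:**
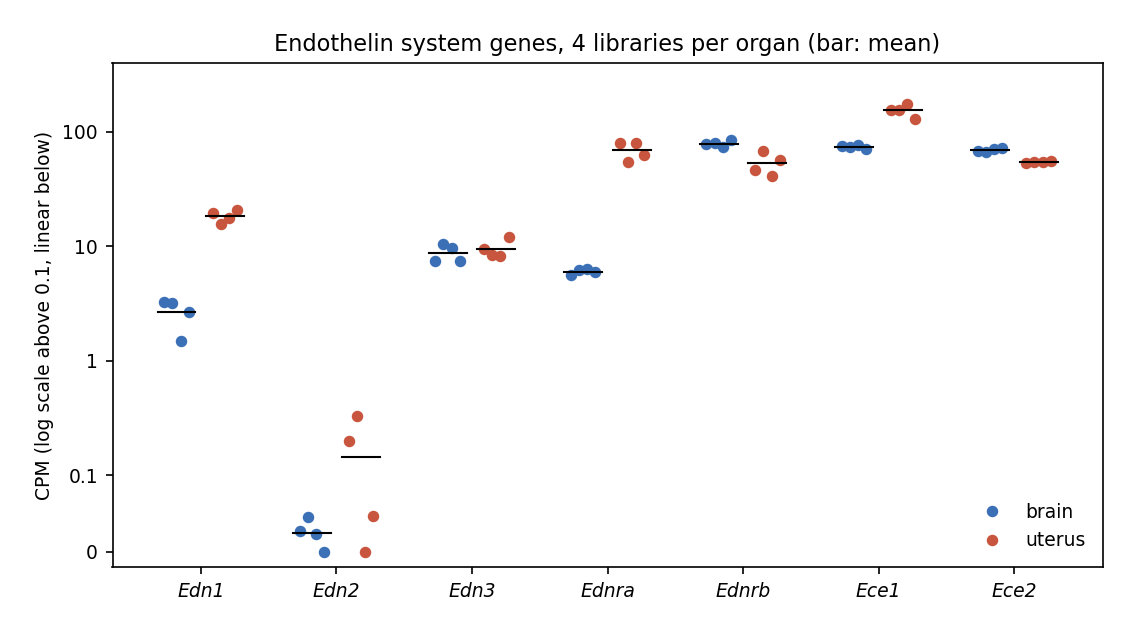
Level of each gene in CPM (log scale above 0.1, linear below) in the 4 brain libraries (blue) and 4 uterus libraries (red), with bars at the means. Edn1, Ednra and Ece1 lie higher in every uterus library than in any brain library, Ednrb and Ece2 lie lower, and Edn3 and Edn2 overlap.

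Edn1 encodes endothelin-1, the main vasoconstrictor peptide of the endothelium (ENSMUSG00000021367, GRCm38 chromosome 13, 42301476 to 42307990, plus strand). Brain libraries 1 to 4 held 3.27, 3.21, 1.5 and 2.70 CPM, and uterus libraries 1 to 4 held 19.5, 15.8, 17.8 and 20.8 CPM. All uterus libraries were above all brain libraries, and brain library 3 was the lowest of the 8. The mean was 18.5 ± 2.19 CPM in uterus and 2.67 ± 0.818 in brain, 6.92-fold higher in uterus, with a log2 fold change of 2.79 ± 0.22 (edgeR adjusted p = 6.95e-07; adjusted p = 6.68e-06 against a 2-fold change). Without brain library 3 the log2 fold change was 2.6. The coefficient of variation of Edn1 in brain, 30.7%, was above both the 9.55% that counting error alone would give and the 7.09% median of all tested genes.

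Endothelium is the best-known source of endothelin-1, and its markers differed between the organs in the same direction as Edn1. The same call was made for 43.5% of all genes tested. Within the uterus the endothelial sums did not follow Edn1. They were 1020, 1040, 963 and 917 CPM in libraries 1 to 4, where Edn1 was highest in library 4 and lowest in library 2. All 7 endothelial markers tested were higher in uterus, with sums of 112 to 125 CPM in brain libraries and 917 to 1040 in uterus libraries, an 8.34-fold difference of the means, and none was at 0 in either organ. Epithelial markers also differed, with sums of 578 to 699 CPM in uterus and 5.90 to 9.10 in brain over 5 genes. The part of either cell type in the Edn1 difference was not tested.

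Edn3, the gene of endothelin-3, which acts mainly through type B receptors (ENSMUSG00000027524, chromosome 2, 174760619 to 174784042, plus strand), was at similar levels in both organs. It stood at 7.53, 10.5, 9.63 and 7.47 CPM in brain libraries 1 to 4, and in uterus libraries at 9.47, 8.37, 8.29 and 12 CPM. The ranges overlapped, with uterus library 4 the highest. The log2 fold change was 0.12 ± 0.16 with a 95% interval of -0.28 to 0.51 (edgeR adjusted p = 0.511). The interval excludes a 2-fold difference in either direction, while a smaller one remains possible. With library-size scaling, which moved the median of all genes from 0.01 to 0.27, Edn3 was called higher in uterus at 0.37 (edgeR adjusted p = 0.0422).

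Edn2, the gene of endothelin-2 (ENSMUSG00000028635, chromosome 4, 120161206 to 120167360, plus strand), was barely detected and did not pass the filter. There were 1, 2, 1 and 0 counts in brain libraries 1 to 4, and 8, 14, 0 and 2 counts in the uterus libraries. Uterus libraries 1 and 2 held most of the counts, and uterus library 3 held none, which allows up to 3 counts. The summed counts, 24 in uterus and 4 in brain, gave a ratio of 6.06 on scaled library sizes (95% exact interval 2.08 to 24.0, counting error only). Fitted with no filter, the log2 fold change was 2.46 ± 1.16 and was not called (edgeR adjusted p = 0.0622).

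Levels of different genes were compared only per kilobase of annotated exon. On this scale Edn1 made up 78.2 ± 1.86% of ligand RNA in uterus (n = 4) and 36.4 ± 9.66% in brain, and Edn3 20.9 ± 1.55% and 63.1 ± 9.59%. Edn2 was 0.945 ± 1.06% in uterus and 0.459 ± 0.326% in brain. The leading ligand RNA was therefore Edn1 in every uterus library (76.5 to 80.5%) and Edn3 in every brain library (54.2 to 76.5%).

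Ednra, the type A receptor gene of contractile cells (ENSMUSG00000031616, chromosome 8, 77663031 to 77724464, minus strand), differed most of the 6 genes tested. Brain libraries 1 to 4 held 5.59, 6.23, 6.33 and 5.94 CPM, and uterus libraries 80.3, 54.7, 79.5 and 62.7 CPM. Uterus libraries 1 and 3 were high and 2 and 4 lower, and all lay far above brain. The mean was 69.3 ± 12.7 CPM in uterus and 6.02 ± 0.333 in brain, 11.5-fold higher in uterus, with a log2 fold change of 3.52 ± 0.14 (edgeR adjusted p = 2.37e-09; adjusted p = 1.04e-08 against a 2-fold change).

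Smooth muscle and pericyte markers were also higher in uterus. All 7 smooth muscle genes tested were, with sums of 6080 to 7330 CPM against 47.8 to 59.0 in brain, a 127-fold difference of the means. All 5 pericyte genes were, with sums of 991 to 1080 CPM against 187 to 205, a 5.2-fold difference. No gene of either list was at 0 in an organ. The 11.5-fold difference of Ednra lay between the fold differences of these sums. Those of the endothelial (8.34), epithelial (84.3) and stromal (103) sums did too, so this placement points to no cell type. The part of any cell type in the Ednra difference was not tested.

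Ednrb, the type B receptor gene (ENSMUSG00000022122, chromosome 14, 103814625 to 103844402, minus strand), was well expressed in both organs and higher in brain. Its level was 77.8, 79.5, 74.2 and 84.3 CPM in brain libraries 1 to 4, and in uterus libraries 46.5, 68.5, 41.3 and 56.3 CPM. The highest uterus library, 2, came close to the lowest brain library, 3, without reaching it. The means were 78.9 ± 4.18 and 53.1 ± 12 CPM, 1.49-fold higher in brain, with a log2 fold change of -0.57 ± 0.14 (edgeR adjusted p = 0.00274). With library sizes alone it was -0.31 and not called (edgeR adjusted p = 0.052).

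Astrocyte markers differed far more than Ednrb. All 6 were higher in brain, with sums of 3680 to 3970 CPM against 19.9 to 26.7 in uterus, and none was at 0 in either organ. The uterine sum came mainly from Slc1a3 (9.58 ± 1.73 CPM) and Aldh1l1 (8.87 ± 2.59). Aqp4 (0.0467 ± 0.0659) and Gjb6 (0.22 ± 0.0994) were near 0 there. These genes fall outside the naming rule and were named after their values were seen. The part of the astrocyte markers in the Ednrb difference, and which uterine cells held Ednrb, was not tested.

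The balance of the receptors therefore differed between the organs. The log2 ratio of Ednra to Ednrb counts was -3.80, -3.67, -3.55 and -3.82 in brain libraries 1 to 4 and 0.79, -0.32, 0.94 and 0.15 in uterus libraries 1 to 4. Brain libraries lay close together, and uterus libraries spread on both sides of 0. Uterus exceeded brain by 4.10 on the log2 scale (exact two-sided permutation test over 70 splits, p = 0.0286, the smallest this design allows; Benjamini-Hochberg adjusted p = 0.0476 over 5 ratios). Ednra and Ednrb each separated the organs, in opposite directions, so this p-value followed from those levels and adds nothing to them. Per kilobase of exon, Ednra was 5.62 ± 0.471% of receptor RNA in brain and 50.5 ± 10.0% in uterus. With the longest transcript as length, the uterine levels of 12.7 and 12.5 CPM per kilobase for Ednra and Ednrb became 19.1 and 12.9, so which receptor leads in uterus depends on the length used.

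Within the uterus, libraries 1 and 3 had the higher Ednra and the lower Ednrb, and libraries 2 and 4 the reverse. Coefficients of variation were 18.3% for Ednra and 22.5% for Ednrb, where the median of all tested genes was 9.79% and counting error alone would give 1.88% and 2.13%. In uterus libraries 1 to 4 the smooth muscle sums were 6500, 7330, 7330 and 6080 CPM, the endothelial sums 1020, 1040, 963 and 917 CPM, and the gland sums 223, 1190, 378 and 77.7 CPM. The spread of the gland sums lay mainly in Spink1, Prss28 and Prss29. The smooth muscle, endothelial and gland sums did not follow the split. Of the 14 marker lists, 3 did, each lower in libraries 1 and 3: the pericyte sums (1000, 1080, 991 and 1010 CPM in libraries 1 to 4), the oviduct sums (24.2, 41.3, 36.9 and 69.5 CPM) and the astrocyte sums (21.1, 23.7, 19.9 and 26.7 CPM). Their part in the spread of the receptors was not tested, and 4 libraries are too few for a correlation. With 4 libraries a list can readily follow such a split by chance. The sums also do not show that the named tissue or cell was present. Of the oviduct genes, Ovgp1 (30.6 CPM) and Pax2 (11.6) made up most of the uterine sum. Foxj1 went the other way, at 0.688 CPM in uterus and 14.7 in brain. The uterine astrocyte sum came mainly from Slc1a3 and Aldh1l1. These genes fall outside the naming rule and were named after their values were seen.

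**Figure D2:**
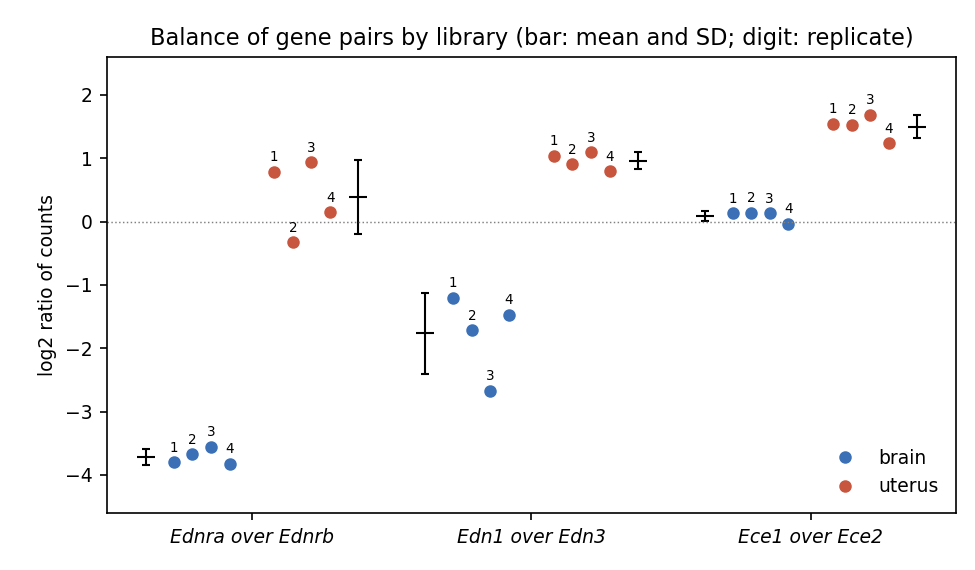
Log2 ratio of counts for 3 gene pairs in each brain (blue) and uterus (red) library, numbered by replicate, with mean and SD beside the points. Uterus exceeds brain in every library for each pair, by 4.10 for the receptors, 2.72 for the ligands Edn1 and Edn3, and 1.41 for the enzymes.

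Ece1, the gene of the main endothelin-converting enzyme, which works at the cell surface and inside the cell (ENSMUSG00000057530, chromosome 4, 137862237 to 137965229, plus strand), had the highest level per kilobase of exon of the 7 genes in uterus. Brain libraries 1 to 4 held 75.1, 73.8, 76.9 and 71.4 CPM, and uterus libraries 157, 157, 175 and 131 CPM. All uterus libraries were above brain, library 4 least. The means were 155 ± 17.9 and 74.3 ± 2.29 CPM, 2.09-fold higher in uterus, with a log2 fold change of 1.06 ± 0.08 (edgeR adjusted p = 4.41e-07). The difference was not called as beyond 2-fold (adjusted p = 0.164), but it was without uterus library 4 (1.15, adjusted p = 0.00561), with upper-quartile scaling (1.32, adjusted p = 0.000837) and with library sizes alone (1.32, adjusted p = 0.00114).

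Ece2, the gene of a converting enzyme known from neurons and from acidic vesicles (ENSMUSG00000022842, chromosome 16, 20629828 to 20646485, plus strand), was slightly higher in brain. In brain libraries 1 to 4 it was 68.8, 67.0, 70.4 and 73.1 CPM, and in uterus libraries 53.9, 54.4, 54.3 and 55.5 CPM. The uterus values were nearly the same in all libraries, with a coefficient of variation of 1.23%. This was below the 2.11% that counting error alone would give, so it does not measure how little Ece2 varies between animals. The means were 69.8 ± 2.6 and 54.5 ± 0.670 CPM, 1.28-fold higher in brain, with a log2 fold change of -0.36 ± 0.04 (edgeR adjusted p = 2.63e-05). With library sizes alone it was -0.10 and not called (edgeR adjusted p = 0.0637).

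Ece2 counts carry a further limit. In GENCODE M21, 57.5% of its exonic bases are shared on the same strand with Gm49333, a gene model that joins Ece2 to its neighbour Eef1akmt4, a methyltransferase gene, with a stretch of 2932 identical or near-identical nt. Neither of those 2 genes was analysed here, and the sources used here do not give how reads from the joined exons were counted. The level printed for Ece2 may therefore differ from that of the converting enzyme transcript alone. Edn1 and Ednra share 1.6% and 1.7% of their exonic bases with antisense transcripts.

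The log2 ratio of Ece1 to Ece2 counts was 0.13, 0.14, 0.13 and -0.03 in brain libraries and 1.55, 1.53, 1.69 and 1.24 in uterus libraries. The organs did not overlap, and uterus exceeded brain by 1.41 (exact permutation test, p = 0.0286, adjusted p = 0.0476 over 5 ratios). The log2 ratio of Edn1 to Edn3 was -1.20, -1.71, -2.67 and -1.47 in brain and 1.04, 0.91, 1.10 and 0.80 in uterus, a difference of 2.72 with the same p-values. Ece1 and Ece2 each separated the organs, in opposite directions, so the p-value of their ratio followed from their levels. Edn1 was at most 3.27 CPM in brain and at least 15.8 CPM in uterus. As a fold difference, this gap was wider than the whole range of Edn3 over all libraries. The p-value of the Edn1 to Edn3 ratio therefore followed from the level of Edn1 and adds nothing to it. Among single genes, 84.1% did not overlap between the organs, and the share among other gene pairs was not computed. Ratios of Edn1 to Edn2 and of Edn2 to Edn3 did not pass (differences of 1.39 and 1.34; exact permutation p = 0.286 and 0.343, both adjusted to 0.343).

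Within an organ, the order of levels per kilobase in brain was Ednrb (18.5 ± 0.980 CPM per kilobase), Ece1 (14 ± 0.433), Ece2 (13.7 ± 0.509), Edn3 (2.14 ± 0.374), Edn1 (1.25 ± 0.382), Ednra (1.10 ± 0.0609) and Edn2 (0.0165 ± 0.0129). Ece1 overlapped Ece2 and Edn1 overlapped Ednra; the other neighbours did not overlap. In uterus it was Ece1 (29.3 ± 3.38), Ednra (12.7 ± 2.31), Ednrb (12.5 ± 2.80), Ece2 (10.7 ± 0.131), Edn1 (8.63 ± 1.02), Edn3 (2.32 ± 0.421) and Edn2 (0.0987 ± 0.103). Ednra, Ednrb and Ece2 overlapped as neighbours there. With the longest transcript as length, the order in brain began with Ece2 (20.3 CPM per kilobase), Ednrb (19.2) and Ece1 (15.4), and Ednra (1.66) stood above Edn1 (1.25). In uterus, Ece2 (15.8) then stood above Ednrb (12.9). The order among the enzymes and receptors, the highest gene in brain included, therefore depends on the length used.

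**Figure D3:**
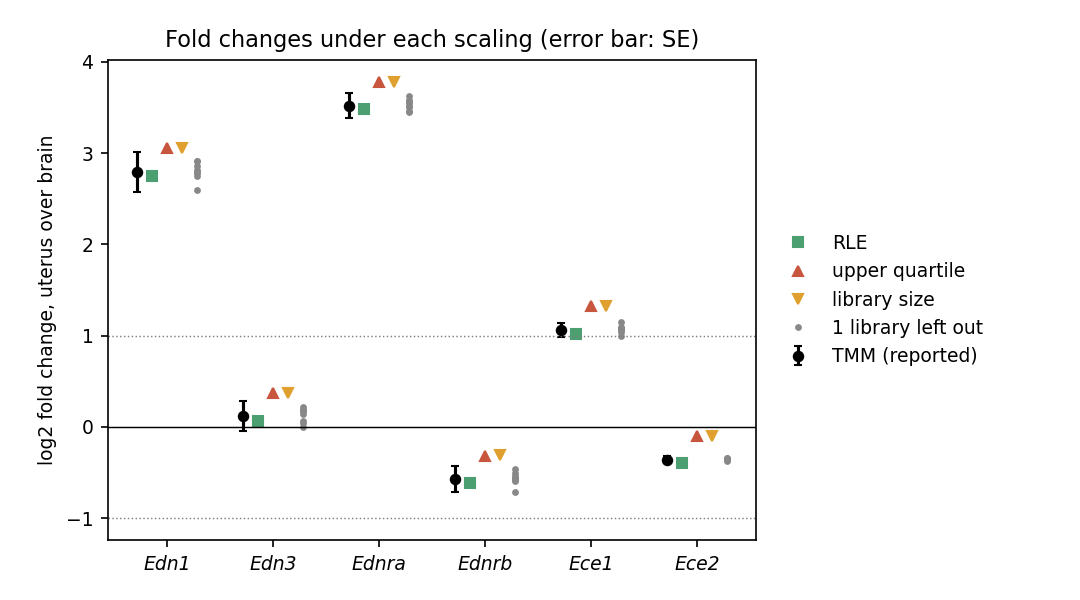
Log2 fold change (uterus over brain) of the 6 tested genes with TMM scaling (black, with SE), other scalings, and each library left out in turn (grey). Edn1 and Ednra stay above 2 throughout, Ednrb and Ece2 stay below 0, and Edn3 lies between 0 and 0.37.

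Genes around the endothelin system were read from 8 lists. Of their 72 tested genes, 35 were higher in uterus (48.6%, against 43.5% of all genes) and 32 in brain (44.4%, against 43.6%), with a median log2 fold change of 0.10 against 0.01 for all genes. Among 7 convertases, which cut the precursors, uterus had the higher level for 3 and brain for 4 (median -0.43; 3 each with library sizes alone). Pcsk5 was 164 ± 31.6 CPM in uterus and 13 ± 0.569 in brain (3.66 ± 0.14), and Furin 75.4 ± 2.87 and 43.9 ± 1.02 (0.78 ± 0.05). Pcsk1 and Pcsk2, convertases of neuroendocrine granules, were 41.8 ± 5.05 and 322 ± 9.88 CPM in brain against 0.213 ± 0.0752 and 0.164 ± 0.203 in uterus. The neuroendocrine convertases were thus near 0 in uterus, while Furin was found in both organs.

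The list of neprilysin-family and other endothelin-cleaving peptidases was also split. Uterus was higher for 4 of 7 tested genes and brain for 3 (median 0.58). Members were drawn partly by family, so these counts are not of endothelin-cutting enzymes alone. With a filter of at least 1 CPM in 4 libraries, uterus was higher for 2 and brain for 3. Mme, the gene of neprilysin, which degrades endothelins, was 457 ± 113 CPM in uterus and 21.3 ± 1.80 in brain (4.42 ± 0.17, edgeR adjusted p = 2.6e-09). Ctsa, a lysosomal carboxypeptidase gene, was 127 ± 12.2 and 85.2 ± 2.53 (0.58 ± 0.07). Ecel1, a relative of the converting enzymes found in neurons, was 23.3 ± 3.35 CPM in brain and 0.187 ± 0.0814 in uterus (-6.93 ± 0.23).

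Signalling genes below the receptors also differed by list. Of 8 G protein genes, brain had the higher level for 5 and uterus for 3 (median -0.47). Gnai3 was 192 ± 11.2 CPM in uterus and 51.4 ± 2.6 in brain (1.90 ± 0.06), and Gnai2 299 ± 12.2 and 167 ± 7.25 (0.85 ± 0.05). Gnaq, which couples both receptors to phospholipase C, was 291 ± 6.17 in brain and 93.6 ± 2.96 in uterus (-1.64 ± 0.05). Gnas, whose locus gives several overlapping transcripts, was 76.4 ± 5.60 in brain and 17.7 ± 0.660 in uterus (-2.11 ± 0.06). Brain was also higher for 7 of 11 phospholipase C and calcium release genes and uterus for 4 (median -2.53). Itpr2, a calcium release channel gene, was 247 ± 16.3 CPM in uterus (3.01 ± 0.06) and Plcb3 102 ± 2.67 (1.65 ± 0.06), while the kinase genes Prkcb (-5.68 ± 0.12) and Prkce (-3.66 ± 0.12) were higher in brain.

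Of 10 tested receptor desensitisation genes, brain was higher for 5 and uterus for 4 (median -0.16), a majority that turned to 5 for uterus and 4 for brain with upper-quartile scaling or library sizes alone. Grk5 did not pass (19.3 CPM in uterus and 18.7 in brain; edgeR adjusted p = 0.59) and is named outside the naming rule, after its value was seen. The G protein brakes Rgs2 (670 ± 87.0 CPM) and Rgs5 (727 ± 38.4 CPM) led in uterus (3.46 ± 0.11 and 2.57 ± 0.07), and Rgs4 (-4.82 ± 0.11) and the receptor kinase gene Adrbk2 (-2.39 ± 0.10) in brain. Of 7 nitric oxide and cyclic GMP genes, uterus was higher for 4 and brain for 3 (median 0.95). Cav1, a caveolar scaffold gene, was 439 ± 40.5 CPM in uterus (4.35 ± 0.09) and Nos3, the endothelial nitric oxide synthase gene, 24.6 ± 3.18 against 8.04 ± 0.776 (1.62 ± 0.12). Nos1, the neuronal synthase gene, was 97.2 ± 8.18 in brain against 0.553 ± 0.244 (-7.44 ± 0.19), and Gucy1b3, a subunit of the nitric oxide receptor, 205 ± 5.13 against 34.9 ± 3.50 (-2.56 ± 0.07).

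The list of transcription factors known to act on endothelin genes had 12 tested members. Uterus had the higher level for 10, against 43.5% of all genes, and brain for 0, against 43.6%. Fos and Smad3 did not pass, and the median was 1.02, against 0.01 for all genes. Factors that raise and factors that lower an endothelin gene were not told apart in the list. The part of these factors in the Edn1 difference was not tested. Gata2, known to bind the Edn1 promoter in endothelium, was 105 ± 11.4 CPM in uterus and 5.85 ± 0.899 in brain (4.17 ± 0.12), and Klf4 44.8 ± 4.5 and 8.47 ± 0.246 (2.40 ± 0.08). Of the AP-1 genes on the list, Jun was 89.5 ± 11.1 against 61.1 ± 4.95 CPM (0.55 ± 0.09), while Fos was 24.6 ± 9.99 against 29.9 ± 14. Jun, Fos and Smad3 fall outside the naming rule and were named after their values were seen. Binding was not measured, so the GATA and AP-1 letters in the Edn1 window and these levels stand side by side only.

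**Figure D4:**
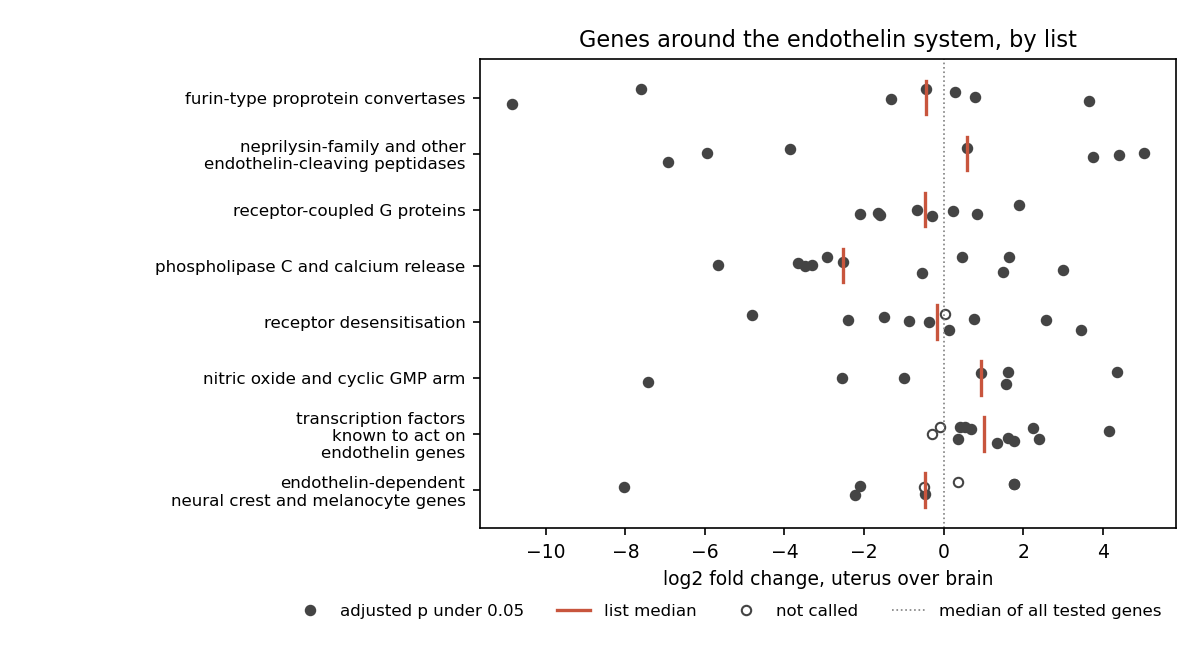
Log2 fold change (uterus over brain) of each tested gene in 8 lists around the endothelin system. Filled points passed the test, open points did not, red lines are list medians, and the dotted line is the median of all genes; genes with 0 counts in 1 organ are not drawn. The phospholipase C list has the lowest median (-2.53) and the transcription factor list the highest (1.02).

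The genes with the most similar profiles over the 8 libraries were found by the root mean square difference of centred log2 CPM, a description with no test. For Ednra they were Tmem100 (0.111), Ltbp1 (0.112) and Arap1 (0.118), and for Edn1 Meox1 (0.143), Zfp607a (0.181) and Ripk4 (0.204). Ednrb was nearest to Fam20c (0.0649), Zfp551 (0.0863) and Pik3c3 (0.108), and Edn3 to Rnf223 (0.126), Fuk (0.129) and Mybl1 (0.145). Ece1 was nearest to Tmem43 (0.0460), Map3k14 (0.0647) and Urb1 (0.0693), and Ece2 to Snx11 (0.0320), Zfp664 (0.0326) and Wbp11 (0.0342). With a prior count of 0.5 in place of 2, Arap1 and Ripk4 were no longer among the 3 nearest, and the other 16 were.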

How the data were processed

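RNA was measured in 4 brain and 4 uterus libraries, grouped by their titles. The authors deposited raw counts per Ensembl gene with no normalization. The submitters' processing notes name FastQC, HISAT2 2.0.3, featureCounts, edgeR and GRCm38.p5; per the labels' protocols the kit was stranded and removed ribosomal RNA. The sources used here do not give the strand setting, annotation release or handling of shared reads, which affect overlapping genes.

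The counts were filtered with filterByExpr (16074 of 19884 genes) and compared with edgeR 4.0.16 in R 4.3.3 (TMM, quasi-likelihood F test, two-sided, Benjamini-Hochberg at 0.05; glmTreat for 2-fold). SE is the unshrunken log2 fold change over the square root of F, and 95% intervals use 6 degrees of freedom. Ratios used counts plus 0.5 and exact permutation. Lengths, coordinates and overlaps came from GENCODE M21 on GRCm38, copies from BLAST+ 2.17.0 (98% identity over 150 nt) and promoter windows from RefSeq, where all 7 genes matched; the motifs were chosen after the Edn1 window was read.

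Named genes are the 7 members, per list and direction the 2 called genes that changed most, at 5 CPM or above in an organ, the 3 nearest profiles, overlapping genes, and markers at 0 in an organ. Members and lists were chosen with earlier results of these data known. The procedure was tested on simulated counts. There a small share of genes was changed, as many up as down, unlike these organs, so that test cannot judge the choice of scaling. Of the lists, 1 is not reported here. The fits were repeated with other scalings (upper-quartile, RLE, library sizes alone), other filters, DESeq2 1.42.0, limma-voom (limma 3.58.1), a replicate block, removal of mitochondrial and top 20 genes, a threshold of 0.01, and leaving out each library. Counting intervals and limits cover counting error only, since reads that carry no molecular identifier do not each stand for a molecule.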

Additional observations from a re-analysis of the deposited data

Results flagged for a closer look

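In brain, the log2 ratio of Ece1 to Ece2 counts was -0.03 in library 4, while libraries 1 to 3 lay at 0.13, 0.14 and 0.13. The gap between library 4 and the rest took up 0.915 of the range, above Dixon's 95% critical value for 4 samples. Library 4 held both the lowest Ece1 (71.4 CPM) and the highest Ece2 (73.1 CPM) of the brain libraries. It was the single value to stand out among 24 groups checked in this way, where chance gives about 1 in 20.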

How the results depend on the processing

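Of 18 alternatives for each tested gene, Edn1 (2.6 to 3.05), Ednra (3.45 to 3.78) and Ece1 (1.00 to 1.32) kept direction and call in all. Library-size scaling ended the calls of Ednrb (-0.31) and Ece2 (-0.10), and it gave a call to Edn3 (0.37), as did upper-quartile scaling (0.37, edgeR adjusted p = 0.04995); the small differences therefore depend on how the organs are scaled. Per kilobase, the longest transcript as length also moved Edn3 (2.82 in brain, 3.06 in uterus), Ednra in brain (1.66) and Ece2 in uterus (15.8). Leaving out 1 library gave -0.71 to -0.46 for Ednrb, -0.37 to -0.34 for Ece2 and 0.00 to 0.22 for Edn3. Adding 5 counts in place of 0.5 brought the ratio of Edn1 to Edn2 past the threshold (2.08), where Edn2 counts are few. Without 1 library, the differences in log2 ratio were 3.92 to 4.34 for the receptors, 1.35 to 1.5 for the enzymes and 2.42 to 2.91 for Edn1 over Edn3.

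Nothing in the labels ties a numbered brain to the uterus of that number. Same-numbered libraries did not deviate together (correlations of -0.048 to 0.083 across genes, against -0.084 to 0.1 for differently numbered pairs). This cannot tell whether a number marks the same mouse, since 2 organs of 1 mouse need not deviate together. With a replicate block the fit called 13846 genes in place of 13989 and changed no call among the 6 genes. For the ratios a replicate block leaves 16 sign splits and a smallest p of 0.125, so no ratio can pass; the differences stayed 4.10, 1.41 and 2.72. The total of called genes in each list, both directions together, stayed within 1.5 times under all alternatives, some of which were chosen after seeing the data. Depth limits Edn2, with 28 counts in all. Edn2 has no fold change from the filtered fit.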

Other observations

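Neural crest and melanocyte genes, which include genes that work with or below endothelin-3 and its type B receptor during development, were split in these adult organs. Of 10 tested genes, brain was higher for 5 and uterus for 3 (4 each with upper-quartile scaling or library sizes alone); the median log2 fold change was -0.47. Sox10, a neural crest factor that marks oligodendrocytes in the adult brain, was 50.2 ± 2.92 CPM in brain and 0.189 ± 0.0974 in uterus (-8.03 ± 0.18), and Ret, a receptor gene of enteric neurons, 34.9 ± 2.85 and 8.22 ± 1.72 (-2.09 ± 0.15). Hand2, which acts below Ednra in the embryonic jaw and in uterine stroma at implantation, reached 76.7 ± 13.3 CPM in uterus and had 0 counts in brain; set against 3 counts over all brain libraries, it was at least 4244-fold higher in uterus. Dlx5 was 17.3 ± 5.91 in uterus and 5.05 ± 0.628 in brain (1.78 ± 0.22).

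Chymases of mast cells can also cut big endothelin. Cma1 was 2.87 ± 2.48 CPM in uterus and 0.0813 ± 0.109 in brain, and Mcpt4 1.59 ± 1.25 and 0.114 ± 0.0944; both fall outside the naming rule and were named after their values were seen. The 6 mast cell markers summed to 5.74, 8.87, 20.1 and 2.0 CPM in uterus libraries 1 to 4 and to 0.142 to 0.646 in brain libraries, with Mcpt1 and Mcpt2 at 0 in brain and at 0.0127 and 0.0243 CPM in uterus, too low to be tested.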
